A study of Mus musculus with 25 samples.

Results

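Untreated livers of mice that lacked both Rb1 and p53 in hepatocytes (DKO) were compared with untreated wild-type livers (WT), on 3 arrays each. The 6 arrays were chosen by their titles and labels from the 25 arrays of the series. The DKO livers were labelled knockout for p53 and for Rb, and the WT livers wild type for both. The strain was given as FVB;129 for all 6, and the treatment as none. Per the series text, the mice carried Cre recombinase under the albumin promoter and loxP sites in the floxed genes, were 14 days old when treated and were sampled after 24 h, and the controls received saline. Whether the WT mice carried Cre is not given in the sources used here, and neither are the sexes of the animals. The albumin promoter is active in hepatocytes, so the other cells of the liver, which are part of the frozen tissue, keep both genes. The same genotype contrast was also available after diethylnitrosamine (DEN), a liver carcinogen that hepatocytes activate, in 5 DKO and 5 WT livers, at a dose of 20 mg/kg. The labels do not state that each array is a different mouse. The spread behind every p-value is therefore that between arrays, and it may be technical. In whole tissue, fewer cells of a type and less RNA per cell cannot be told apart.

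The retinoblastoma protein binds E2F transcription factors and holds back the genes that E2F drives, which encode the enzymes of DNA replication and the cyclins that start S phase. p53 is a transcription factor that is kept at a low level in unstressed cells and, after DNA damage, switches on genes of arrest, repair and cell death. The liver of a mouse at this age is still growing: the fetal hepatocyte genes are being shut off, the metabolic genes of the adult hepatocyte are being switched on, and blood cell formation is leaving the organ.

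Of 15951 genes tested, 177 differed between untreated DKO and WT livers at an adjusted p under 0.05, which is 1.11% of all genes. Of these, 138 were higher in DKO livers (0.865% of all genes) and 39 were lower (0.244%), and 68 differed by more than 1 log2 unit. Among the called genes, Hamp (hepcidin), the granule gene Ngp and the fetal genes Igf2 and Afp were in the 12 largest rises. The lipid genes Gdpd3 and Thrsp and the transporter Slco1a1 were in the 12 largest called falls. At an unadjusted p under 0.05 there were 1917 genes, and the median difference over all genes was 0.008 log2. When each array was first centred on its own median, 271 genes were called and the share of lower ones was 10.7%, against 22% without centring.

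The 6 arrays did not form 2 even groups. Array names placed the 3 DKO arrays and WT replicates 1 and 2 in set 1, and WT replicate 3 in set 2. Within set 1, arrays of the same genotype correlated at 0.989 to 0.991 over all probe sets and arrays of different genotype at 0.981 to 0.983, while WT replicate 3 reached 0.945 to 0.956 with the others. The model therefore held a term for the set, estimated from all 25 arrays. With set 1 alone, where WT replicates 1 and 2 are the only untreated WT arrays, 891 genes were called (5.59%), of which 604 were higher (3.79%) and 287 lower (1.80%). Of the 177 genes, 173 were also called there (97.7% of the 177 and 19.4% of the 891), and all 177 had the same sign. This fit reuses the 3 DKO arrays and WT replicates 1 and 2, so such agreement was favoured in advance. In signal as deposited, all 3 DKO arrays lay above all 3 WT arrays for 133 of the 177 genes and below them for 34, and the ranges overlapped for 10. Over all genes, the ranges did not overlap for 26.6%, namely 15.2% above and 11.4% below. The 177 genes were selected for a difference, so a higher share among them was favoured in advance.

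The sex-linked genes divided the WT arrays as well. Xist, the RNA that silences the second X chromosome of female cells, had a log2 signal of 3.39, 2.87 and 3.17 in DKO livers, against 9.82, 4.15 and 10.55 in WT livers. The Y-linked gene Eif2s3y had 6.51, 6.80 and 6.64 in DKO livers, against 2.41, 7.02 and 2.61 in WT livers. WT replicate 2 thus lay near the DKO arrays in both genes, with low Xist and high Eif2s3y, the pattern of male tissue. WT replicates 1 and 3 had high Xist and low Eif2s3y, the pattern of female tissue. By these signals, sex was partly confounded with genotype in the untreated arrays. With log2 Xist as a covariate 94 genes were called, and with WT replicate 2 as the only untreated WT array 67 genes. The part of sex in the other differences was not tested beyond these fits. Of the 45 called genes named below, 29 kept their call with the Xist term, 25 with WT replicate 2 alone, and 10 whichever single array of the 6 was left out.

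**Figure D1:**
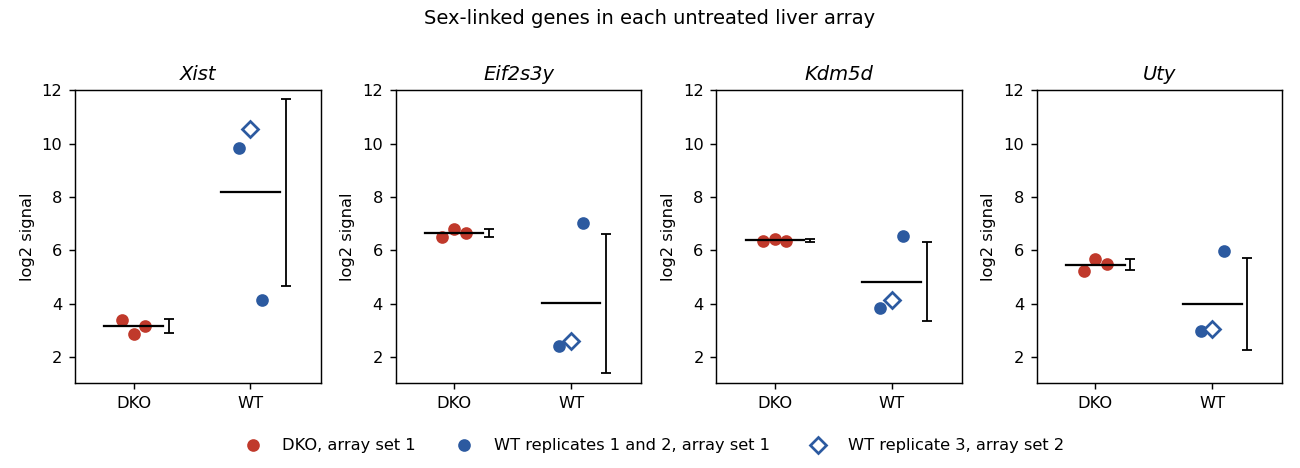
Log2 signal (y axis) of Xist and of 3 Y-linked genes in each untreated DKO and WT array. Filled points are arrays of set 1, the open diamond is WT replicate 3 of set 2, bars are means and whiskers 1 SD (n = 3). WT replicate 2 sits with the DKO arrays in all 4 genes.

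Rb1, the floxed gene, had 5.02, 5.02 and 4.76 in DKO livers, against 5.34, 5.30 and 5.76 in WT livers. All 3 DKO arrays lay below all 3 WT arrays, but the fitted difference of -0.50 ± 0.22 log2 (SE) did not pass the test (adjusted p = 0.336). Which exons the probe set covers is not given in the sources used here, and cells without Cre activity add their own Rb1 RNA. Alb, whose promoter drives the recombinase, had 12.37, 12.23 and 12.64 in DKO livers, against 12.47, 12.54 and 12.91 in WT livers, with adjusted p = 0.635. Trp53 is not analysed here. None of the 17 hepatocyte identity genes tested was called by limma (1 had an unadjusted p under 0.05), and their median difference was -0.03 log2. The share called over all genes was 1.11%. In set 1 alone 1 of the 17 was called, higher in DKO livers.

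Hepcidin showed the largest fitted difference of all genes tested. Hamp encodes the peptide hormone that blocks iron export from cells by binding ferroportin, and its signal was 10.40, 10.67 and 10.79 in DKO livers, against 3.49, 3.78 and 7.19 in WT livers. WT replicates 1 and 2 lay just above the limit of 3.33 log2 under which genes were left out as dim, and WT replicate 3 stood about midway. The fitted difference was 6.32 ± 0.78 log2, an estimated 79.7-fold rise (adjusted p = 8.2e-05), and the call held in all 22 alternatives. Hamp2, the neighbouring mouse paralog, had 9.84, 10.40 and 10.20 in DKO livers, against 6.20, 6.41 and 9.09 in WT livers, a difference of 3.46 ± 0.53 log2 (adjusted p = 9.1e-04). The Hamp2 call held in each single-array omission but was lost in 2 of the 22 alternatives (limma, largest adjusted p = 0.113). Hamp and Hamp2 are near-identical copies, and signal can cross between their probe sets. Hamp also varied widely among WT livers after DEN, with a range of 7.30 to 10.21 over the 3 WT arrays of set 1 and of 6.88 to 11.49 over the 2 of set 2.

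The upstream sequences of the hepcidin pair are shown because these genes led the comparison and share most of their letters. The sequences are the 150 bases before the start of each gene on the minus strand of RefSeq build GRCm38.p6. Capitals mark GGCGCC, the BMP response element through which SMAD proteins act on hepcidin, and TTCNNNGAA, the word bound by STAT factors, searched on both strands with no overlap between the matches.
Hamp, chr7:30944030-30944179: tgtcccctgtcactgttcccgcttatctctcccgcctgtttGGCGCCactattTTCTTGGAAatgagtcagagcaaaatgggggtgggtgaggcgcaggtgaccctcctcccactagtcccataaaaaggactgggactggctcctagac
Hamp2, chr7:30924182-30924331: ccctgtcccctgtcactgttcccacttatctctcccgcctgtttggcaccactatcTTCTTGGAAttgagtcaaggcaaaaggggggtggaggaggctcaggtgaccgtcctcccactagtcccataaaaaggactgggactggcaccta
The windows were identical at 135 of 153 aligned positions (88.2%). Both held 1 TTCNNNGAA match. GGCGCC matched once in Hamp, and the aligned letters of Hamp2 differ by the substitution G4A, counted from 1 at the 5′ end of the Hamp element. Among all 32851 RefSeq promoters, windows of the same length held GGCGCC in 7.01% and TTCNNNGAA in 4.09%. A match is a description of the letters and not a site shown to be bound.

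Of the 22 genes of iron handling tested, 2 rose (both hepcidins), 1 fell and 19 were not called. Called rises made up 0.865% of all genes and called falls 0.244%. The list's median was 0.11 log2. The gene that fell was Tfrc, the transferrin receptor through which cells take up iron, with 7.79, 8.36 and 7.75 in DKO livers, against 9.44, 9.32 and 9.00 in WT livers. Its 2 groups did not overlap, and the difference was -1.44 ± 0.29 log2 (adjusted p = 0.0096), which ended without DKO replicate 3 (0.0768) or WT replicate 1 (0.0689). Slc40a1, which encodes ferroportin, had 8.73, 8.75 and 8.77 in DKO livers, against 8.02, 7.95 and 7.99 in WT livers, with adjusted p = 0.105. Atoh8, a transcription factor that BMP signalling induces in liver, differed by 0.70 log2 (adjusted p = 0.147) and Tfr2, a sensor of iron-laden transferrin, by 0.60 log2 (0.253). Alas1, the first enzyme of haem synthesis, stood outside that list: it had 7.48, 7.37 and 7.18 in DKO livers, against 9.84, 9.67 and 8.23 in WT livers, and fell by 1.94 log2 (adjusted p = 0.0087). The Alas1 call ended without DKO replicate 3 (0.0652), WT replicate 1 (0.122) or WT replicate 2 (0.0882).

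**Figure D2:**
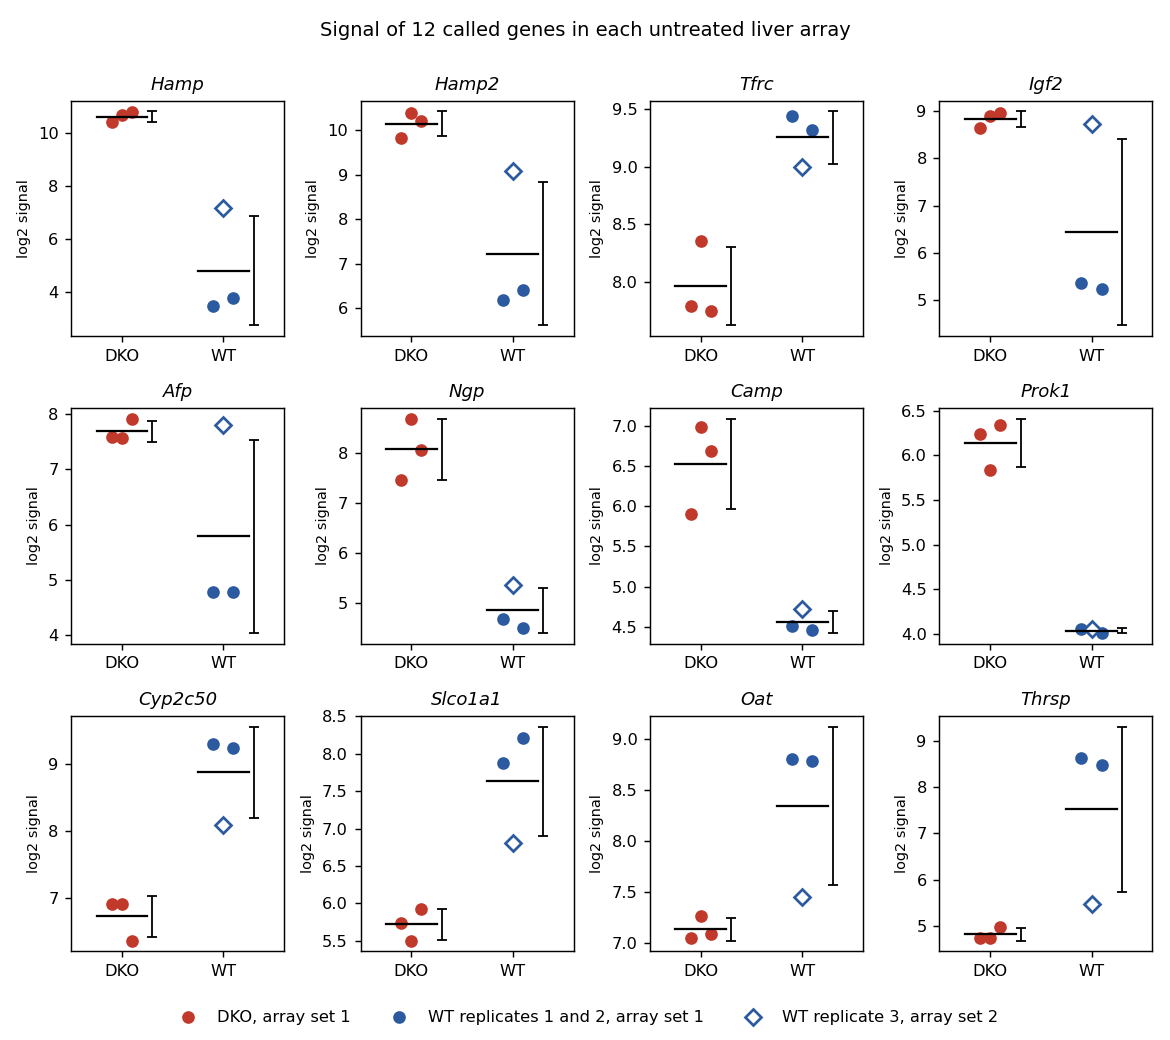
Log2 signal (y axis of each panel, scaled to its own gene) of 12 called genes in each untreated DKO and WT array. Filled points are arrays of set 1, the open diamond is WT replicate 3 of set 2, bars are means and whiskers 1 SD (n = 3). WT replicate 3 lies within the DKO range for Igf2 and Afp, and apart from it for the other 10 genes.

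The fetal genes Igf2 and Afp rose in DKO livers, and WT replicate 3 shared their high level. Igf2, the imprinted fetal growth factor, had 8.64, 8.89 and 8.96 in DKO livers, against 5.37, 5.23 and 8.72 in WT livers. Afp, the albumin-like protein of fetal serum, had 7.59, 7.56 and 7.91 in DKO livers, against 4.78, 4.78 and 7.80 in WT livers. For both genes WT replicate 3 fell inside the DKO range, and the other WT arrays lay about 3 log2 units below it. The model assigned part of that height to the array set (0.98 log2 for Igf2 and 1.54 for Afp). Among WT livers after DEN, the Igf2 signal was 5.78 to 7.06 in the 2 of set 2 and 5.81 to 6.71 in the 3 of set 1, and the Afp signal was 6.86 to 9.26 in set 2 and 6.87 to 8.46 in set 1. The part of the array set in the height of WT replicate 3 was not tested. The fitted differences were 2.72 ± 0.53 log2 for Igf2 (adjusted p = 0.0087) and 2.42 ± 0.57 log2 for Afp (adjusted p = 0.0318). The Igf2 call ended without DKO replicate 3 (0.0593), WT replicate 1 (0.122) or WT replicate 2 (0.113). The Afp call ended when any 1 array other than WT replicate 3 was left out, with adjusted p between 0.0807 without DKO replicate 1 and 0.204 without WT replicate 1.

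Among 16 imprinted growth genes, with a median of 0.38 log2, 3 rose and 13 were not called, against 0.865% of all genes called higher. Besides Igf2 these were Peg3, a zinc finger gene expressed from the paternal allele, with 8.95, 8.62 and 8.68 in DKO livers against 7.55, 7.41 and 8.27 in WT livers, and Grb10, an adaptor that restrains insulin signalling, with 6.75, 6.87 and 6.90 in DKO livers against 6.14, 6.17 and 6.10 in WT livers. Neither gene overlapped between the groups. Their differences were 1.28 ± 0.28 log2 (adjusted p = 0.0192) for Peg3 and 0.70 ± 0.14 log2 (adjusted p = 0.0096) for Grb10. The Peg3 call ended without DKO replicate 1 or 3 or WT replicate 1 or 2, at up to 0.103, and the Grb10 call without DKO replicate 3 or WT replicate 1 or 2, at up to 0.0696. The number of called imprinted genes ranged between 0 and 5 as single arrays were left out, and the list's median between 0.27 without WT replicate 2 and 0.54 without WT replicate 3. Mest differed by 0.98 log2 (adjusted p = 0.0532). Among 16 oncofetal genes, Afp and Igf2bp3, an mRNA-binding protein of fetal tissue, rose and 14 were not called, with a median of 0.16 log2 and 6 of 16 fitted differences below 0. Igf2bp3 had 6.82, 6.70 and 6.76 in DKO livers, against 6.01, 5.93 and 5.51 in WT livers, a difference of 0.78 log2 (adjusted p = 0.0318), whose call ended in 5 of the 6 single-array omissions, all but that of WT replicate 3, at up to 0.147 without WT replicate 2.

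The granule genes Ngp, Camp and Mpo of neutrophils and their precursors rose in DKO livers. Ngp, a granule protein made in the bone marrow, had 7.46, 8.67 and 8.06 in DKO livers, against 4.69, 4.51 and 5.36 in WT livers. Camp, the antimicrobial peptide cathelicidin, had 5.90, 6.99 and 6.68 in DKO livers, against 4.51, 4.46 and 4.72 in WT livers. Every DKO array lay above every WT array for both, with differences of 3.01 ± 0.48 log2 (adjusted p = 0.0013) for Ngp and 1.90 ± 0.28 log2 (adjusted p = 8.0e-04) for Camp that held in all 22 alternatives. Mpo, the peroxidase of the early granules, had 4.32, 4.51 and 4.76 in DKO livers, against 3.65, 3.70 and 4.17 in WT livers, and rose by 0.84 log2 (adjusted p = 0.0068). That call ended without DKO replicate 3 (0.0749) or WT replicate 1 (0.0582).

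Of the 19 neutrophil and myeloid precursor markers, 5 were left out as dim (Ctsg, Mmp8, Ly6g, Chil3 and Ms4a3), 3 of the other 14 rose, none fell and 11 were not called. Over all genes, 0.865% were called higher. The list's median difference was 0.58 log2, and its mean signal was 5.20, 5.64 and 5.53 in DKO livers, against 4.33, 4.32 and 4.47 in WT livers. The alarmins S100a8 and S100a9 were among those not called: S100a9 had 9.44, 10.18 and 9.88 in DKO livers, against 7.42, 7.13 and 5.73 in WT livers, without overlap but with adjusted p = 0.0583. In set 1 alone 7 members were called, all higher, while 3.79% of all genes were called higher there. Elane and Prtn3, proteases packed at the earliest stage of the lineage, differed by 0.14 and 0.02 log2 (adjusted p = 0.776 and 0.985). Stfa3, a cysteine protease inhibitor of myeloid cells with near-identical copies, rose by 3.78 ± 0.88 log2 (adjusted p = 0.0288), with 8.18, 9.19 and 8.85 in DKO livers against 3.76, 4.39 and 5.33 in WT livers. Its call ended when any 1 array other than WT replicate 3 was left out, at up to 0.221 without WT replicate 1. Vpreb1, part of the surrogate light chain of precursor B cells, had 7.13, 8.23 and 7.94 in DKO livers, against 5.73, 5.45 and 5.52 in WT livers (1.84 log2, adjusted p = 0.0479), a call that ended without DKO replicate 2 or 3 or WT replicate 1 or 2, at up to 0.258.

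In the fit of all arrays, only Sparc and Krt23 were called among the markers of other blood and liver cells in 6 lists. By limma, 0 of 16 erythroid, 0 of 16 macrophage, 0 of 13 lymphocyte and 0 of 21 endothelial markers were called. The share over all genes was 1.11%. At an unadjusted p under 0.05 there were 2, 1, 2 and 1 markers, and the median differences were between 0.03 and 0.07 log2. In set 1 alone 2 erythroid markers were called higher (3.79% of all genes) and 2 endothelial markers lower (1.80%). No macrophage or lymphocyte marker was called there. The haem synthesis gene Alas2, an erythroid marker, had 6.85, 6.40 and 6.49 in DKO livers, against 6.37, 6.73 and 6.33 in WT livers. Of 22 stellate cell and matrix markers 1 rose, Sparc, a collagen-binding matrix protein, with 11.08, 10.92 and 11.02 in DKO livers against 10.28, 10.47 and 10.10 in WT livers (0.64 ± 0.13 log2, adjusted p = 0.0148). Of 11 cholangiocyte and progenitor markers 1 rose, the keratin Krt23, with 8.03, 7.74 and 8.20 in DKO livers against 6.01, 5.92 and 7.33 in WT livers (1.56 ± 0.38 log2, adjusted p = 0.0416). Epcam and Krt19, which define bile duct cells, differed by 0.10 and -0.12 log2. The Sparc call ended without DKO replicate 1 (0.0705), DKO replicate 3 (0.0788) or WT replicate 1 (0.130), and the Krt23 call in each omission but that of WT replicate 3, at up to 0.259 without WT replicate 2.

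**Figure D3:**
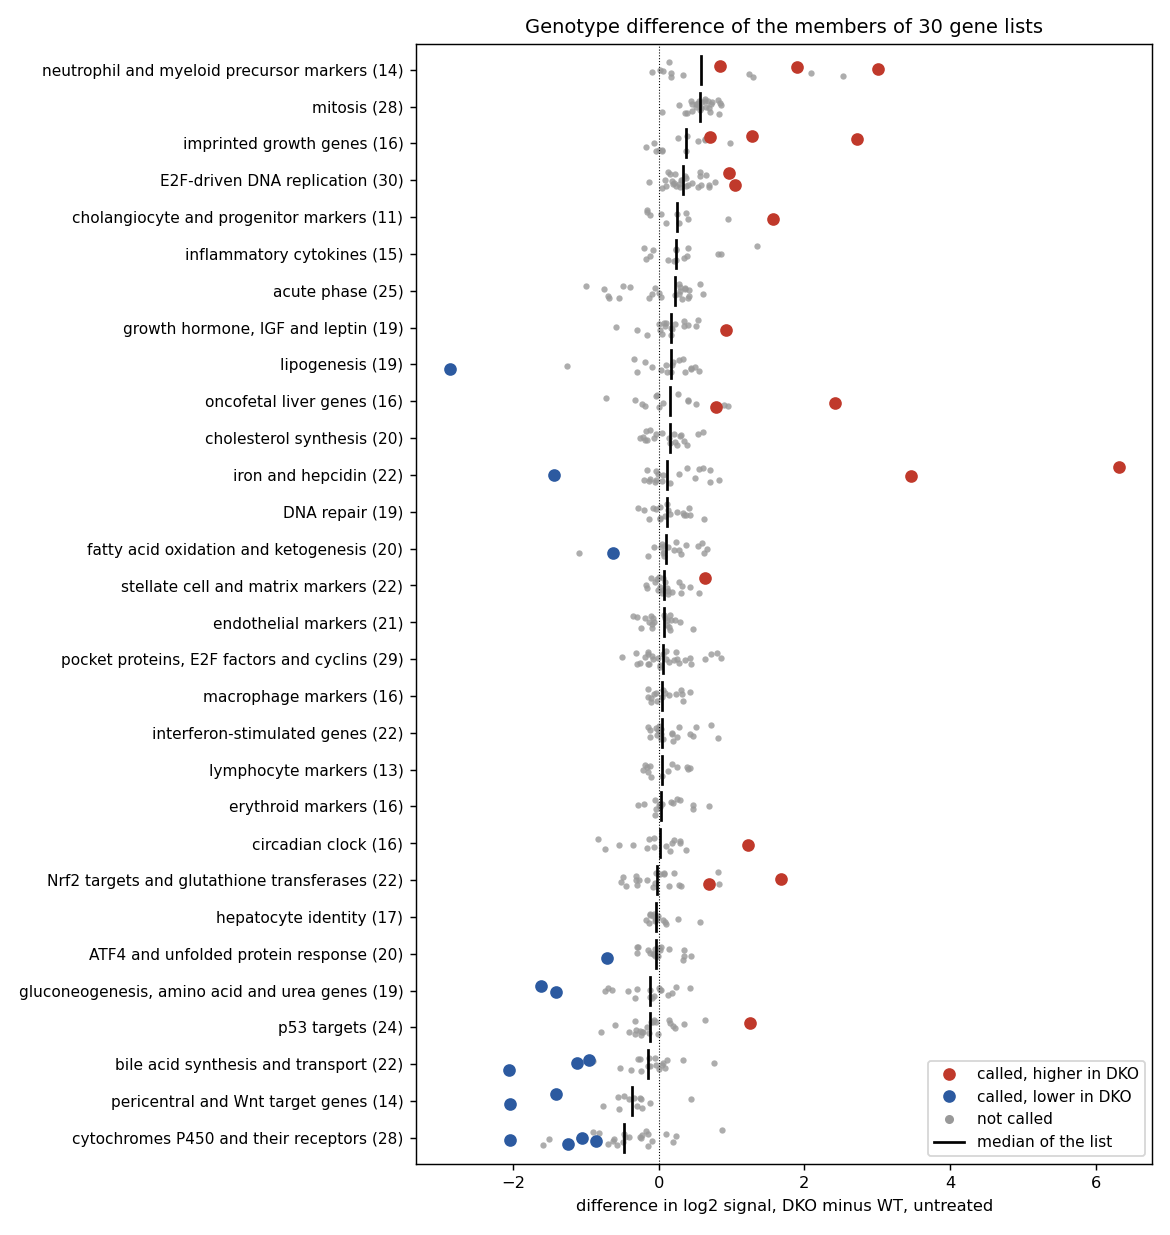
Difference in log2 signal between untreated DKO and WT livers (x axis, DKO minus WT) for each tested member of 30 gene lists (y axis, number tested in brackets). Large red points are genes called higher in DKO livers, large blue points genes called lower, small grey points the rest, and black bars the list medians. The cytochrome P450 list at the bottom holds 4 called falls and a median of -0.48, and the mitosis list lies to the right of 0 with no called member.

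Cytochromes P450 are the oxidases that handle drugs, steroids and DEN itself, and 4 of their genes fell in DKO livers. Of 28 tested members of the list, which includes their receptors, 4 fell, none rose and 24 were not called. Called falls made up 0.244% of all genes. The median was -0.48 log2, with 24 of 28 fitted differences below 0, while 51.4% of all genes had one above 0. All DKO arrays lay below all WT arrays for 14 of the 28, against 11.4% of all genes. Cyp2c50 had 6.91, 6.91 and 6.37 in DKO livers, against 9.30, 9.25 and 8.09 in WT livers, and its difference of -2.04 ± 0.30 log2 (adjusted p = 6.2e-04) was called in all 22 alternatives. Cyp2c39 had 9.66, 9.62 and 9.52 in DKO livers, against 10.96, 11.03 and 10.57 in WT livers (-1.25 ± 0.25 log2, adjusted p = 0.0104). Cyp2c54 differed by -1.05 log2 (adjusted p = 0.0278) and Cyp3a25 by -0.86 log2 (adjusted p = 0.0220). The calls of these 3 ended without DKO replicate 3 or WT replicate 1, and for Cyp2c39 also without WT replicate 2 (largest 0.0899), for Cyp2c54 without DKO replicate 2 or WT replicate 2 (0.241) and for Cyp3a25 without DKO replicate 1 (0.130 without WT replicate 1). With Xist as a covariate 2 of the 4 P450 calls were left, and adjusted p was 0.0740 for Cyp2c54 and 0.0791 for Cyp3a25. With WT replicate 2 as the only WT array 2 were left as well, and adjusted p was 0.0644 for Cyp2c39 and 0.463 for Cyp3a25. Cyp2c genes share long stretches of sequence, so their probe sets may not be independent. The number of called P450 genes ranged between 1 and 6 as single arrays were left out, and the median between -0.53 and -0.44 log2. Cyp2b10 and Cyp3a11, the usual readouts of the drug receptors CAR and PXR, differed by -0.58 and -0.48 log2 (adjusted p = 0.485 and 0.263).

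Bile acid genes followed the same direction in 3 members. Of 22 tested, 3 fell, none rose and 19 were not called, against 0.244% of all genes called lower. The median was -0.14 log2. Slco1a1, a hepatocyte uptake transporter for bile acids and steroid sulfates, had 5.73, 5.50 and 5.92 in DKO livers, against 7.88, 8.21 and 6.81 in WT livers (-2.06 ± 0.36 log2, adjusted p = 0.0040, ended without WT replicate 2 at 0.0523). Baat, which joins bile acids to amino acids, had 6.34, 6.10 and 6.06 in DKO livers, against 7.75, 7.31 and 6.46 in WT livers (-1.12 ± 0.21 log2, adjusted p = 0.0069). Cyp27a1, the enzyme that opens the alternative route of bile acid synthesis, had 6.95, 6.75 and 6.79 in DKO livers, against 8.14, 8.06 and 7.02 in WT livers (-0.95 ± 0.20 log2, adjusted p = 0.0141). For each of the 3 genes all DKO arrays lay below all WT arrays, with WT replicate 3 nearest to them. Cyp7a1, the rate-limiting enzyme of the main route, had 8.63, 8.53 and 8.52 in DKO livers, against 9.55, 9.42 and 9.09 in WT livers, and missed the threshold (adjusted p = 0.174). The Baat call ended without DKO replicate 3 (0.0585) or WT replicate 1 (0.125), and the Cyp27a1 call without DKO replicate 2 or 3 or WT replicate 1 or 2, at up to 0.180.

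Amino acid genes of the hepatocyte fell in 2 of 19 cases, against 0.244% of all genes called lower. Oat, which passes ornithine toward glutamate, had 7.05, 7.26 and 7.09 in DKO livers, against 8.80, 8.79 and 7.45 in WT livers (-1.41 ± 0.23 log2, adjusted p = 0.0013). Prodh, the first enzyme of proline breakdown, had 6.07, 6.24 and 5.92 in DKO livers, against 8.11, 7.92 and 6.44 in WT livers (-1.61 ± 0.32 log2, adjusted p = 0.0093). In both, WT replicates 1 and 2 stood well above the DKO arrays and WT replicate 3 only slightly. The Oat call held in each single-array omission, and the Prodh call ended without DKO replicate 3 (0.0683), WT replicate 1 (0.124) or WT replicate 2 (0.0825). The median of the 19 genes was -0.12 log2 and became positive without WT replicate 1 (0.021) or WT replicate 2 (0.036), while in set 1 alone it was -0.41 with 1 gene called higher and 8 lower. Over all genes, 3.79% were called higher and 1.80% lower in set 1 alone. Arg1 and Cps1, enzymes of the urea cycle, differed by -0.63 and -0.32 log2 (adjusted p = 0.117 and 0.295), and Pck1, of gluconeogenesis, by 0.24 log2 (0.769).

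The pericentral list, genes of the hepatocytes around the central vein where Wnt signalling is strongest, had a median of -0.37 log2 over 14 genes, 13 of them below 0. Of these 2 fell, Oat and the glutamate transporter Slc1a2, none rose and 12 were not called, against 0.244% of all genes called lower. Slc1a2 had 5.33, 4.88 and 4.37 in DKO livers, against 7.59, 7.08 and 5.71 in WT livers (-2.04 ± 0.38 log2, adjusted p = 0.0051), and its call ended without DKO replicate 3 (0.0593) or WT replicate 1 (0.0887). Glul, the glutamine synthetase that marks the innermost ring, had 9.28, 9.04 and 9.43 in DKO livers, against 9.80, 9.83 and 9.30 in WT livers, overlapping and not called (adjusted p = 0.204). Axin2, a direct Wnt target, differed by -0.34 log2 (adjusted p = 0.638).

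In lipid metabolism 1 gene was called in each of the lipogenesis and fatty acid oxidation lists, against 1.11% of all genes. Thrsp, a lipogenic regulator that thyroid hormone and carbohydrate induce, had 4.73, 4.75 and 4.97 in DKO livers, against 8.64, 8.47 and 5.47 in WT livers. The DKO arrays lay below all WT arrays, but WT replicate 3 was within 0.75 log2 of them and the other WT arrays over 3 log2 units higher. The fitted fall of 2.87 ± 0.65 on the log2 scale (adjusted p = 0.0232) was lost when any 1 array other than WT replicate 3 was left out, at up to 0.207 without WT replicate 1. The other 18 lipogenesis genes were not called, Fasn and Scd1 among them (-0.19 and -0.34 log2), and the list's median was 0.17 log2. Among 20 genes of fatty acid oxidation and ketogenesis, Angptl4, a secreted inhibitor of lipoprotein lipase, fell by 0.62 on the log2 scale (adjusted p = 0.0365) and 19 were not called, and this call ended without DKO replicate 2 or 3 or WT replicate 1 or 2, at up to 0.255. None of 20 cholesterol synthesis genes was called by limma in the fit of all arrays (3 at an unadjusted p under 0.05). In set 1 alone 2 of them were called higher, against 3.79% of all genes.

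The largest fall among the called genes was in Gdpd3, a glycerophosphodiesterase that makes lysophosphatidic acid. It had 3.52, 3.44 and 3.78 in DKO livers, against 7.18, 7.63 and 6.23 in WT livers, a difference of -3.93 ± 0.45 log2 (adjusted p = 3.1e-05) that held in all 22 alternatives. The DKO signals were close to the dim limit. Gm6614, a gene of the Slco1a transporter region, fell by 1.84 on the log2 scale and was called in all 22 alternatives (largest adjusted p = 0.0475). Nat8f2, Prkch and Pln completed the 12 largest falls, by 1.61, 1.68 and 1.43 on the log2 scale, with calls that ended in 2, 5 and 4 of the 6 single-array omissions at up to 0.0989, 0.311 and 0.216. On the other side, Prok1, a secreted ligand of prokineticin receptors, had 6.24, 5.83 and 6.34 in DKO livers, against 4.05, 4.01 and 4.05 in WT livers, the smallest adjusted p of all genes (2.3e-06, 2.08 ± 0.20 log2). Raet1d, a ligand of the NKG2D receptor of natural killer cells with near-identical copies, had 6.42, 7.28 and 7.03 in DKO livers, against 4.42, 4.55 and 4.53 in WT livers (2.24 ± 0.33 log2, adjusted p = 8.0e-04). For Prok1 and Raet1d the 3 WT arrays, from both sets, lay within 0.15 log2 of each other, and the calls held in all 22 alternatives.

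Among 22 Nrf2 targets and glutathione transferases, 2 rose: Osgin1, an oxidative stress response gene, with 7.27, 7.79 and 8.02 in DKO livers against 6.37, 5.78 and 6.85 in WT livers (1.68 ± 0.35 log2, adjusted p = 0.0133), and Gclc, the catalytic subunit of the first enzyme of glutathione synthesis, with 9.84, 10.03 and 9.94 in DKO livers against 9.24, 9.26 and 9.62 in WT livers (0.69 ± 0.15 log2, adjusted p = 0.0207). Neither overlapped. Nqo1, a classical Nrf2 target, differed by 0.21 log2 (adjusted p = 0.717), and the list's median was -0.02 log2. Both calls were lost in some omissions of 1 array, for Osgin1 without DKO replicate 2 (0.061), DKO replicate 3 (0.109) or WT replicate 2 (0.103) and for Gclc without DKO replicate 2 or 3 or WT replicate 1 or 2 at up to 0.122. Mgst2 and Fam25c, the remaining pair among the 12 largest rises, differed by 1.87 and 1.82 log2 (adjusted p = 0.0158 and 0.0111), and their calls ended without WT replicate 2 (0.177 and 0.130) or DKO replicate 3 (0.121 and 0.068), and for Fam25c also without WT replicate 1 (0.163). Of 20 ATF4 and unfolded protein response genes 1 fell, Ddit4, an inhibitor of mTORC1 (-0.71 log2, adjusted p = 0.0445), of 16 circadian genes 1 rose, the clock repressor Nr1d1 (1.23 log2, adjusted p = 0.0140), and of 19 growth hormone and IGF genes 1 rose, Igfals, which stabilises circulating IGF1 (0.92 log2, adjusted p = 0.0436). Of these 3, Ddit4 overlapped between the groups, and each call ended in 3 or more single-array omissions, at up to 0.295, 0.121 and 0.242.

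The replication genes are the textbook targets of E2F. Of 30 tested replication genes, 29 had a fitted difference above 0, against 51.4% of all genes. In this list 2 rose and 28 were not called, against 0.865% of all genes called higher, and the median was 0.34 log2. Mcm6, a subunit of the replicative helicase, had 7.37, 7.27 and 7.69 in DKO livers, against 6.25, 6.49 and 6.37 in WT livers (0.96 ± 0.24 log2, adjusted p = 0.0419). Prim1, the catalytic subunit of primase, had 7.45, 7.64 and 7.75 in DKO livers, against 6.21, 6.48 and 6.97 in WT livers (1.05 ± 0.26 log2, adjusted p = 0.0477). The groups did not overlap, but both calls were lost when any 1 array other than WT replicate 3 was left out, at up to 0.236 for Mcm6 and 0.285 for Prim1 without WT replicate 1. Over the list, all DKO arrays lay above all WT arrays for 20 of 30 genes, against 15.2% of all genes.

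The mitosis list, the kinases, kinesins and checkpoint proteins of chromosome segregation, had 28 tested members, all with a fitted difference above 0 and a median of 0.57 log2. Over all genes, 51.4% had a fitted difference above 0. None was called by limma in the fit of all arrays, while 16 had an unadjusted p under 0.05, against 1917 of all 15951 genes. In set 1 alone 25 of 28 were called, all higher, with a median of 0.84 log2, and without WT replicate 3 8 of 28. Over all genes, 3.79% were called higher in set 1 alone. The mean signal of the list was 5.86, 5.84 and 6.21 in DKO livers, against 4.96, 5.33 and 5.39 in WT livers, without overlap. One by one, 23 of the 28 genes did not overlap, all above, while all DKO arrays lay above all WT arrays for 15.2% of all genes. Its median was 0.33 log2 without WT replicate 1 and 0.66 with WT replicate 2 as the only WT array. Cdk1, the mitotic kinase, had 6.38, 6.39 and 6.70 in DKO livers, against 5.31, 5.79 and 4.79 in WT livers (0.73 ± 0.21 log2, adjusted p = 0.104). Its ranges did not overlap, and it missed the threshold.

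**Figure D4:**
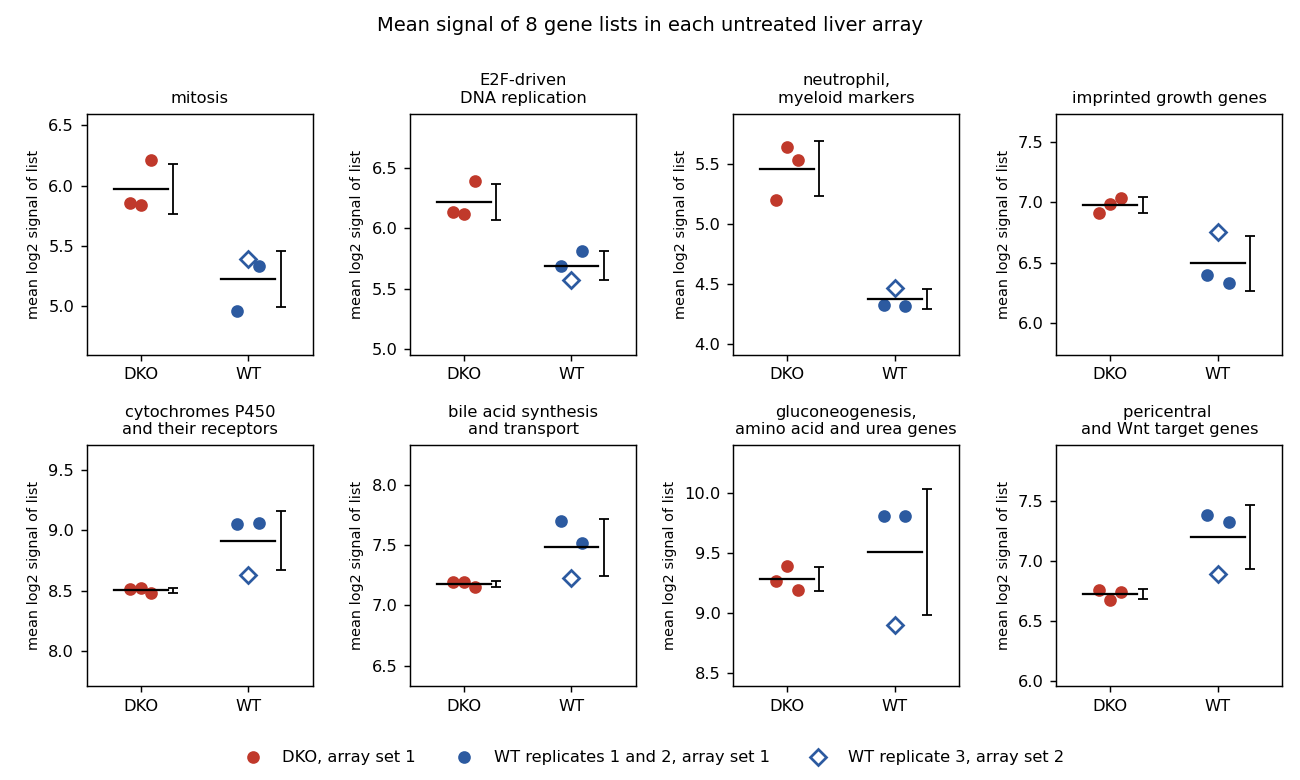
Mean log2 signal over the tested members of 8 gene lists (y axis, each panel spanning 2 log2 units) in each untreated DKO and WT array. Filled points are arrays of set 1, the open diamond is WT replicate 3 of set 2, bars are means and whiskers 1 SD (n = 3). The DKO arrays lie above all WT arrays in the upper 4 panels, and in the lower 4 panels WT replicate 3 lies nearer to the DKO arrays than WT replicates 1 and 2 do.

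The list of cell cycle regulators held no called gene in the fit of all arrays. None of 29 pocket proteins, E2F factors, cyclins and their kinases passed the test in limma (5 at an unadjusted p under 0.05), and the median was 0.06 log2, with 17 fitted differences above 0 and 12 below. The closest were Cdkn1c, an imprinted kinase inhibitor (0.64 log2, adjusted p = 0.0654), Cdk4 (0.72 log2, 0.0885) and the E2F repressor E2f8 (0.81 log2, 0.167). Ccna2, cyclin A2, had 6.87, 6.62 and 7.05 in DKO livers, against 5.48, 5.97 and 6.51 in WT livers (adjusted p = 0.243). In set 1 alone 5 of the 29 were called, all higher, while 3.79% of all genes were called higher there. Ccna2 (1.13 log2, adjusted p = 4.0e-04) and E2f8 (1.06 log2, 0.0034) were among these 5. None of 19 DNA repair genes was called in the fit of all arrays (1 at an unadjusted p under 0.05), and 2 were called higher in set 1 alone.

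The Mcm6 upstream sequence is shown because it is the called replication gene with E2F-type words. The 150 bases before its start lie on the minus strand of RefSeq build GRCm38.p6, and capitals mark TTTGGCGC, TTTCGCGC, TTTCCCGC or TTTGCCGC on either strand.
Mcm6, chr1:128359706-128359855: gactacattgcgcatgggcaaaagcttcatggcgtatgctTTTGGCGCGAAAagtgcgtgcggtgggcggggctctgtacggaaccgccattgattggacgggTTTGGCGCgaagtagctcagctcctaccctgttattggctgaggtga
The search found 3 matches, of which the first 2 overlap on opposite strands. The window of Prim1 held none of these words. They were present for 5 of the 26 replication genes with a promoter in the table (19.2%) and for 1 of 25 mitosis genes (4.0%), against 1.44% of 27025 genes.

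p53 targets held 1 called gene in the untreated liver. Of 24 tested, 1 rose, none fell and 23 were not called, while 1.11% of all genes were called. The median was -0.12 log2. Cdkn1a, whose probe set has several gene symbols, and Bax, which had no named probe set, were not tested. In set 1 alone 3 of the 24 were called, Gadd45a and Fas higher and Trp53inp1 lower. There Fas differed by 0.84 log2 (limma, adjusted p = 7.9e-04) and Trp53inp1 by -0.95 log2 (0.0015), and 5.59% of all genes were called. The gene that rose, Gadd45a, a growth arrest and repair gene, had 6.20, 6.98 and 6.85 in DKO livers, against 5.42, 4.95 and 6.33 in WT livers. DKO replicate 1 and WT replicate 3 overlapped, and the difference was 1.26 ± 0.22 log2 (adjusted p = 0.0040), lost without WT replicate 2 (0.0619). Mdm2, the ubiquitin ligase that p53 induces and that degrades it, had 5.98, 6.09 and 6.07 in DKO livers, against 6.24, 6.43 and 6.59 in WT livers (-0.32 ± 0.27 log2, adjusted p = 0.707). Its DKO arrays lay below all WT arrays by less than 0.7 log2. Phlda3, an inhibitor of AKT, differed by -0.61 log2 (adjusted p = 0.184), and Fas, the death receptor, by 0.64 log2 (adjusted p = 0.161).

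No gene was called in the 3 lists of inflammation in the fit of all arrays, where 1.11% of all genes were called. By limma, 0 of 25 acute phase genes, 0 of 15 cytokines and 0 of 22 interferon-stimulated genes were called. At an unadjusted p under 0.05 there were 9, 3 and 2, against 1917 of all 15951 genes. In set 1 alone 2 acute phase genes, 1 cytokine and 1 interferon-stimulated gene were called, against 5.59% of all genes. Saa1, a serum amyloid made in inflammation, had 4.16, 5.99 and 4.31 in DKO livers, against 4.08, 5.92 and 2.94 in WT livers, so that 1 array of each genotype stood high. Cxcl1, a neutrophil attractant, had 6.89, 8.97 and 8.53 in DKO livers, against 6.93, 7.06 and 6.65 in WT livers (1.35 ± 0.39 log2, adjusted p = 0.0893). DKO replicates 2 and 3, which were high in Cxcl1, were also those with the higher Ngp and Camp signals, and the part of this in the granule genes was not tested.

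After DEN, 48 of the 177 genes were called and the others were not. The genotype contrast after DEN called 1887 genes (11.8%), of which 429 were higher in DKO livers (2.69%) and 1458 lower (9.14%). The livers of the 2 contrasts are different ones, but the contrasts are not independent, since 1 model of all 25 arrays gave both the set term and the spread. The 48 shared genes are 27.1% of the 177 and 2.54% of the 1887. In 21 of the 48 the direction was the same, higher in 15 and lower in 6. In 25 the gene was higher in untreated DKO livers and lower in DKO livers after DEN, and in 2 the reverse. The test of the difference between the contrasts called 1580 of all genes (9.91%) and 30 of the 45 called genes named here. Those 45 were selected by their call in untreated livers, which favours a difference between the contrasts in advance.

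Igf2 averaged 6.17 ± 0.31 in DKO livers after DEN and 6.24 ± 0.60 in WT livers after DEN (SD, n = 5 each), so that the fitted difference of 2.72 log2 in untreated livers stood beside -0.09 after DEN. Hamp averaged 10.14 ± 0.22 in DKO livers after DEN and 8.90 ± 1.95 in WT livers after DEN, and its difference was 1.39 log2 (adjusted p = 0.194) beside 6.32 untreated. Ngp averaged 5.19 ± 0.63 in DKO livers after DEN and 4.97 ± 0.70 in WT livers after DEN, and Prok1 4.08 ± 0.46 in DKO livers and 4.12 ± 0.20 in WT livers. For Hamp, Igf2, Ngp and Prok1 the contrasts differed (adjusted p = 0.0026, 0.0092, 0.0020 and 6.9e-05). Xist averaged 6.13 ± 3.57 in DKO livers after DEN and 3.63 ± 0.23 in WT livers after DEN. Its higher mean thus lay in WT livers when untreated and in DKO livers after DEN. The part of sex in the difference between the contrasts was not tested beyond the fit with Xist as a covariate. Sparc and Cyp3a25 were called in opposite directions: Sparc differed by 0.64 log2 untreated and -0.52 after DEN (adjusted p = 0.0045), and Cyp3a25 by -0.86 untreated and 0.61 after DEN (adjusted p = 0.0182).

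Other genes kept a difference of the same sign after DEN. Gdpd3 differed by -1.83 log2 (adjusted p = 0.0033) beside -3.93 untreated, with a difference between the contrasts (adjusted p = 0.0190). Hamp2 differed by 1.64 log2 (adjusted p = 0.0205), Cyp27a1 by -0.85 (0.0023), Prim1 by 0.90 (0.0108), Mcm6 by 0.63 (0.0434) and Fam25c by 1.01 (0.0386), and for these 5 the difference between the contrasts did not pass the threshold (adjusted p from 0.0888 for Hamp2 to 0.853 for Cyp27a1). The mitosis list had 15 of 28 members called higher after DEN, with a median of 0.74 log2, and the replication list 7 of 30 with a median of 0.22, against 2.69% of all genes called higher. The p53 target list had 10 of 24 members called lower after DEN and a median of -0.52 log2, Mdm2 at -0.91 (adjusted p = 0.0115) and Phlda3 at -1.14 (adjusted p = 2.9e-04) among them, against 9.14% of all genes called lower.

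**Figure D5:**
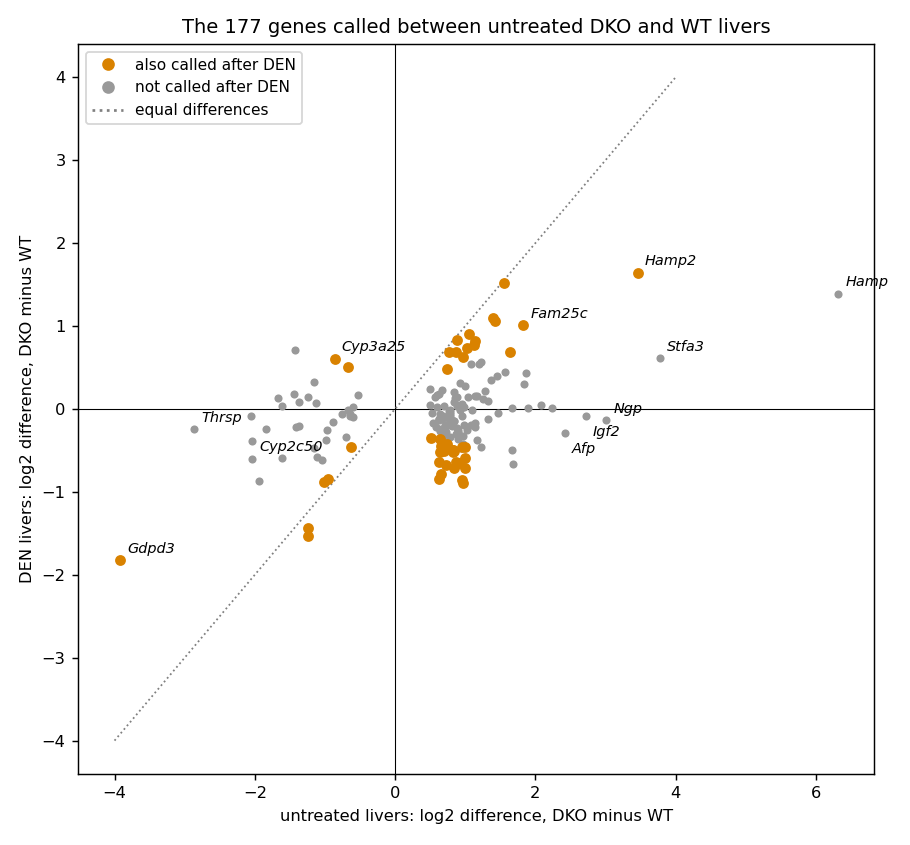
Fitted log2 difference between DKO and WT livers, untreated (x axis) and after DEN (y axis), for the 177 genes called in untreated livers. Orange points were also called after DEN, grey points were not, and the dotted line marks equal differences. Hamp, Igf2, Ngp, Afp and Thrsp lie far from 0 untreated and nearer to 0 after DEN, and Hamp2, Gdpd3 and Fam25c keep their sign.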

How the data were processed

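RNA of frozen livers was amplified, labelled with biotin and hybridised to 1-colour Affymetrix gene arrays, per the labels' protocols. The values deposited by the authors are log2 signals from RMA in Affymetrix Expression Console 1.1, per the submitters' processing notes. RMA subtracts background, equalises the arrays' distributions and summarises each probe set. The genome build and whether 1 run covered all arrays are not given in the sources used here. Of 35555 probe sets on 25 arrays, 21789 had 1 gene symbol in the platform annotation. The probe set with the highest mean was kept per gene (19938 genes), and 3987 genes under the 20th percentile (3.33 log2) were left out as dim, so 15951 were tested. The number of arrays limits the precision. Group means and a term for the array set (3 sets, of 16, 4 and 5 arrays, read from the array names) entered one linear model of the 25 arrays (limma 3.58.1, R 4.3.3, lmFit and eBayes), with two-sided tests and Benjamini-Hochberg adjustment over all genes tested. Called means an adjusted p under 0.05, and errors of differences are SE. Tested on simulated data, the model recovered most of the changed genes and also called some unchanged ones. The simulated residuals were independent normal draws at each gene's fitted spread, with no sex difference and no outlying array. The simulation therefore cannot show how those features of the real arrays affect the calls. Named genes are Rb1 and Alb, the 12 largest rises and 12 largest falls called with the same sign in set 1, and, per list, up to 6 members in order of p and the first 2 members, with any member for cell markers and sex-linked genes. The comparison, members and lists were chosen with earlier results of these data known. Alternatives covered the set term, filter, probe set choice, centring, quantile normalization, array weights, Xist as covariate and each array left out. Sequences are from RefSeq promoter tables (GRCm38.p6).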

Additional observations from a re-analysis of the deposited data

Results flagged for a closer look

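For 30 of the 45 called genes named above, the difference between DKO and WT livers was not the same after DEN as in untreated livers by the test of that difference itself (limma, adjusted p under 0.05). Values are log2 units, the genotype difference after DEN minus that in untreated livers, so a negative value means that the difference was lower after DEN. Both contrasts rest on different arrays but share the term for the array set. Beyond -2 lay Hamp (-4.93), Ngp (-3.14), Igf2 (-2.81), Afp (-2.70), Osgin1 (-2.34), Raet1d (-2.23) and Prok1 (-2.04). Camp (-1.89), Nr1d1 (-1.69), Sparc (-1.16), Gadd45a (-1.14) and Gclc (-1.01) followed, and Igfals (-0.94), Grb10 (-0.93), Igf2bp3 (-0.86) and Mpo (-0.75) were under 1 in size. Among the genes lower in untreated DKO livers, the value was positive for Oat (1.19), Baat (1.20), Cyp2c39 (1.39), Cyp2c50 (1.44), Cyp3a25 (1.47), Gm6614 (1.60), Tfrc (1.61), Prodh (1.65), Slc1a2 (1.66), Prkch (1.81), Slco1a1 (1.97), Gdpd3 (2.10), Pln (2.14) and Thrsp (2.63). All 45 genes were named because they were called in untreated livers, and that same difference is subtracted here. A shift toward 0 was therefore favoured in advance, and the 30 of 45 cannot be read as a rate. Over all genes, the same test called 9.91%. The balance of Xist between the genotypes also changed between the contrasts, as given above. For the other 15 the difference between the contrasts did not pass the threshold.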

How the results depend on the processing

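The count of 177 genes between untreated DKO and WT livers moved with the processing. It was 72 with no set term, 891 in set 1 alone, 515 without set 2, 1112 with WT replicates 1 and 2 alone, 55 with only the 6 untreated arrays, 1575 with array weights, 271 with arrays centred on their median, 117 with quantile normalization repeated and 94 with Xist as a covariate. It was 67 with WT replicate 2 as the only untreated WT array, an alternative chosen after seeing the data, and 44 to 311 with single arrays left out: 109, 81 and 44 without DKO replicate 1, 2 and 3, and 55, 59 and 311 without WT replicate 1, 2 and 3. The cause of these changes was not tested. After DEN the count of 1887 was 523 with only the DEN DKO and WT arrays and 1398 to 2114 with single arrays left out. For the difference between the contrasts, 1580 became 664 with no set term, 881 without set 2, 2391 with centring, 702 with Xist and 806 to 1684 with single arrays left out. None of the 45 called genes named above changed sign in the alternatives run, 22 for each gene and 21 for Mpo, which the filter at the 40th percentile left out. No paired analysis was possible because the labels give no replicate numbers shared between the groups. The number of arrays is small, and signals near 3.33 log2, such as Hamp in 2 WT arrays and Gdpd3 in DKO livers, may understate a difference.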
